A study of Mus musculus with 10 samples.

Results

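Marco, Siglecf, Chil3, Ear1, Ear2, Fabp1, Pparg, Plet1, Krt79 and Atp6v0d2 are 10 genes used as markers of alveolar macrophages, the resident phagocytes of the air space. They were taken by gene symbol from a count table of 33347 mouse genes, and all 10 were found. The table holds whole-lung RNA of wild-type mice, every one of which had received bleomycin, an agent that breaks DNA and is used to produce injury and scarring of the lung. In 5 samples the mice had been given bone marrow cells with high aldehyde dehydrogenase activity (ALDHbr), and in 5 they had been given marrow cells with low activity (ALDHdim). No sample without bleomycin or without transferred cells was analysed here, so each group can be read only against the other. The labels number the samples without saying that each was a separate animal, and p-values therefore measure the spread between these samples.

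Alveolar macrophages settle in the lung around birth, when GM-CSF from alveolar epithelium induces the nuclear receptor PPAR-gamma (Pparg), which sets up their programme of lipid handling and surfactant clearance. Cells in that state carry the scavenger receptor MARCO and the sialic acid-binding lectin Siglec-F on their surface and secrete the chitinase-like protein Ym1 (Chil3). After lung injury the resident cells can be lost and replaced by monocyte-derived cells, which can pass through a stage marked by osteopontin (Spp1) before they take on resident markers.

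The libraries were 3' BRB-seq libraries of 588063 to 2002947 counts, and the 10 genes together took 0.0565% to 0.120% of the counts in ALDHbr libraries and 0.0881% to 0.107% in ALDHdim libraries. ALDHbr 3 and ALDHbr 5 differed from the rest in the number of genes with a count, 24722 and 25377, against 17044 to 21209 in the other libraries. ALDHbr 2 and ALDHdim 2 stood apart from the rest in composition. Each had the highest level of Scgb1a1, the club cell secretoglobin, in its group (44490 CPM in ALDHbr 2 and 34350 CPM in ALDHdim 2), and the lowest level of Spp1 (143 and 163 CPM) and of the macrophage receptor gene Adgre1 (15.7 and 17.7 CPM). Levels are given as CPM, counts scaled to library size with TMM. Since 3' counts were not divided by length, levels are compared between libraries and not between genes.

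None of the 10 genes was shown to differ between ALDHbr and ALDHdim recipients. Of the 8 that passed the filter on low counts, 0 were past an adjusted p of 0.05 in edgeR's quasi-likelihood test over 10844 genes, and 0% of all tested genes were called. At an unadjusted p under 0.05 the count was 0 of 8 genes, beside 3.71% of all tested genes. The ALDHbr and ALDHdim ranges overlapped for all 10, and 0.535% of tested genes had ranges that did not overlap. The estimates were higher in ALDHbr recipients for 3 genes and lower for 5, with a median log2 fold change of -0.12 beside 0.01 over all tested genes. For Siglecf and Ear1, which had lower estimates, the mean CPM was higher in ALDHbr (10.1 against 9.94 and 22.3 against 20.1). Over all tested genes, 5628 estimates were higher and 5216 lower. In whole-lung RNA, fewer cells of a type and less RNA per cell cannot be told apart.

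**Figure D1:**
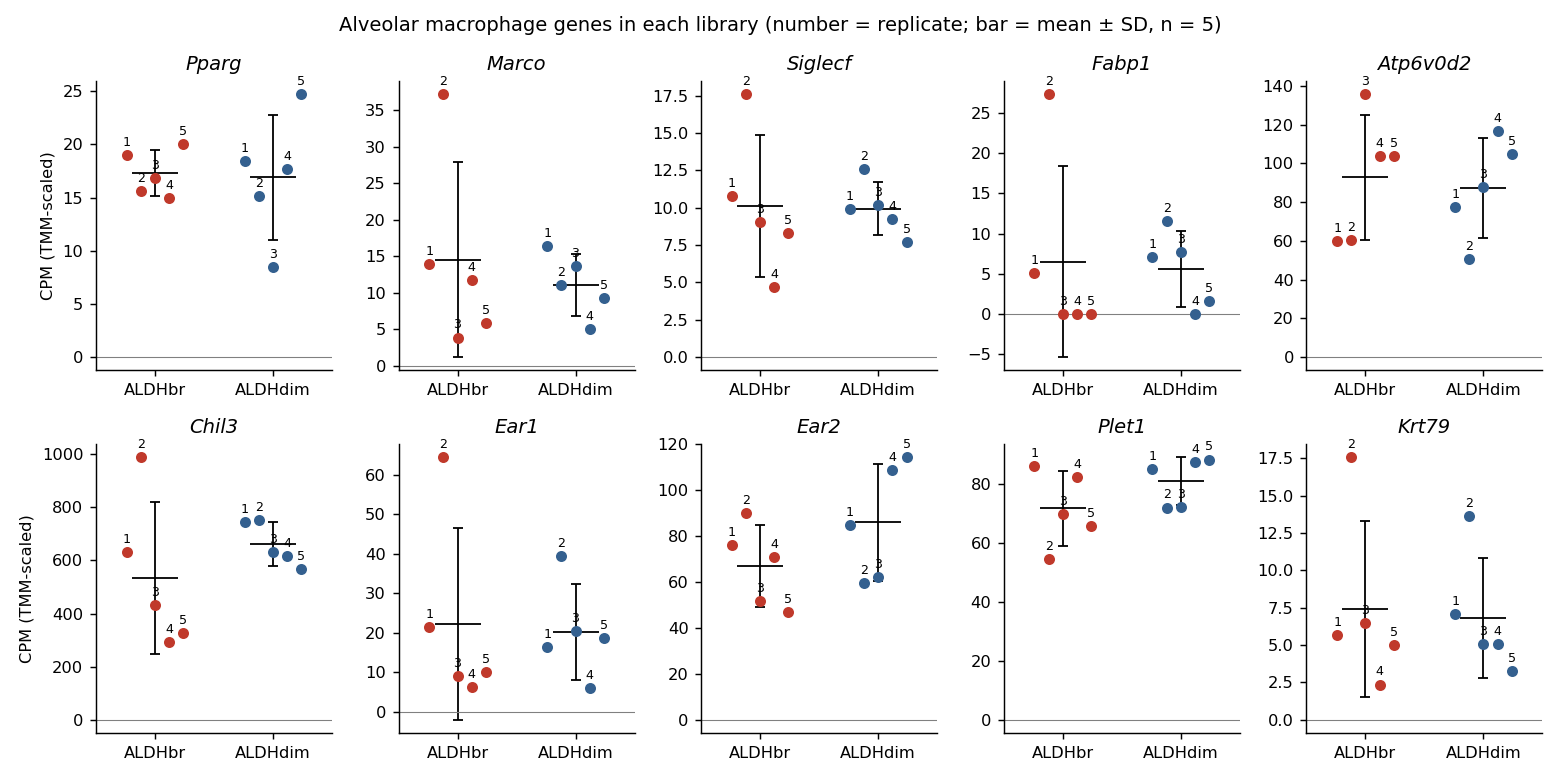
CPM of the 10 genes in each library, ALDHbr on the left and ALDHdim on the right of each panel; points are libraries numbered by replicate and bars are mean ± SD (n = 5). The groups overlap in every panel, and ALDHbr 2 is the highest ALDHbr library for 7 of the 10 genes.

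Pparg, the receptor that directs the resident programme, lies at chr6:115360951-115490399 (GRCm38, plus strand) and was measured at 19.0, 15.6, 16.8, 14.9 and 19.99 CPM in ALDHbr libraries 1 to 5, against 18.5, 15.1, 8.51, 17.7 and 24.7 CPM in ALDHdim libraries 1 to 5. The ALDHbr values lay inside the ALDHdim range, with ALDHdim 3 the lowest library and ALDHdim 5 the highest. The means were 17.3 ± 2.16 CPM in ALDHbr and 16.9 ± 5.87 CPM in ALDHdim (SD, n = 5 each), and the log2 fold change was 0.03 (SE 0.25, 95% interval -0.50 to 0.56, edgeR adjusted p = 0.999). That interval spans fold changes of 0.706 to 1.47. Pparg is also a gene of adipocytes, whose hormone gene Adipoq had 17.0 ± 7.24 CPM over ALDHbr libraries and 23.0 ± 6.86 CPM over ALDHdim libraries (SD, n = 5 each); the part of fat in the Pparg level was not tested.

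Marco (chr1:120474538-120505024, minus strand), which binds bacteria and particles, varied over a 9.58-fold range. It had 13.9, 37.2, 3.88, 11.8 and 5.83 CPM in ALDHbr libraries 1 to 5, against 16.3, 11.1, 13.6, 5.05 and 9.34 CPM in ALDHdim libraries 1 to 5. The highest and the lowest library were both ALDHbr, namely ALDHbr 2 and ALDHbr 3, so the ALDHdim values lay wholly within the ALDHbr range. The values rest on 3 to 23 counts a library, and the exact 95% counting interval was 22.4 to 58.0 CPM in ALDHbr 2 and 0.800 to 11.3 CPM in ALDHbr 3. The log2 fold change was 0.22 (SE 0.46, 95% interval -0.76 to 1.19, edgeR adjusted p = 0.999), and it was -0.24 without ALDHbr 2 and 0.70 without ALDHbr 3 and ALDHbr 5.

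Siglecf (chr7:43351341-43359531, plus strand), an inhibitory lectin shared with eosinophils, had 10.8, 17.6, 9.06, 4.72 and 8.33 CPM in ALDHbr libraries 1 to 5, against 9.94, 12.6, 10.2, 9.26 and 7.69 CPM in ALDHdim libraries 1 to 5. ALDHbr 2 was the highest library and ALDHbr 4 the lowest, and each had fewer than 10 counts. The means were 10.1 ± 4.74 CPM in ALDHbr and 9.94 ± 1.78 CPM in ALDHdim (SD, n = 5 each), with a log2 fold change of -0.09 (SE 0.31, 95% interval -0.74 to 0.56, edgeR adjusted p = 0.999). Genes of eosinophil granules were near 0: Prg2 had 2 counts and Epx 1 count over all 10 libraries. The eosinophil receptors Ccr3 and Il5ra had 19 and 9 counts.

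Chil3 (chr3:106147554-106167564, minus strand) encodes Ym1, a secreted chitinase-like lectin. It had 631, 989.7, 433, 292 and 327 CPM in ALDHbr libraries 1 to 5, against 745, 751, 632, 617 and 567 CPM in ALDHdim libraries 1 to 5. ALDHbr 3, 4 and 5 were below every ALDHdim library, ALDHbr 2 was above every one, and ALDHbr 1 lay among them. The means were 535 ± 287 CPM in ALDHbr and 662 ± 81.6 CPM in ALDHdim (SD, n = 5 each), and the log2 fold change was -0.32 (SE 0.28, 95% interval -0.93 to 0.29, edgeR adjusted p = 0.999). Leaving out ALDHbr 2 gave -0.66, with an unadjusted edgeR p of 0.00507 and an adjusted p of 0.9997, whereas leaving out ALDHbr 3 and ALDHbr 5 gave -0.059, ALDHbr 4 alone -0.16 and ALDHbr 5 alone -0.18. With 335 to 1488 counts a library, Chil3 was the most deeply counted of the 10.

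Ear1 and Ear2 encode eosinophil-associated ribonucleases, small secreted enzymes of the ribonuclease A superfamily that alveolar macrophages also make. They lie on chromosome 14 (GRCm38), Ear1 at chr14:43818765-43875517 on the minus strand and Ear2 at chr14:44102654-44103534 on the plus strand. The Ear1 span of 56753 bases overlaps the family pseudogenes Ear-ps12 and Ear-ps9 on the same strand. The part of that overlap in the Ear1 counts was not tested. The Ear1 and Ear2 sequences are shown because the counts must separate genes that are nearly the same. The last 120 coding bases of each, from GENCODE transcripts at chr14:43818942-43819061 (minus strand) and chr14:44103238-44103357 (plus strand), are written 5' to 3' with the positions that differ in capitals.
Ear1 coding end: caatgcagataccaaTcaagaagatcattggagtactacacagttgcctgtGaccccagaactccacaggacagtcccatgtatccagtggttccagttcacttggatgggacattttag
Ear2 coding end: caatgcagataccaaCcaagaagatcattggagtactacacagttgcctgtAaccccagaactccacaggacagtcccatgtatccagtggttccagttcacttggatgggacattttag

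These ends were identical at 118 of 120 positions, and the whole transcripts, 713 bases for Ear1 and 719 for Ear2, were 96.0% identical. Of the 420 stretches of 81 bases (the length of the RNA read) in the last 500 bases of the transcript, 139 of Ear1 (33.1%) and 64 of Ear2 (15.2%) occur in another gene or pseudogene of the family. Reads from those stretches could be dropped or split by the counting, so the separate Ear1 and Ear2 levels are uncertain. Chil3 shared 46 such stretches (11.0%) with Chil4, a gene with 10 counts in all libraries, and the other 7 genes shared 0.

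Ear1 had 21.5, 64.5, 9.06, 6.29 and 10.0 CPM in ALDHbr libraries 1 to 5, against 16.3, 39.3, 20.4, 5.89 and 18.7 CPM in ALDHdim libraries 1 to 5. ALDHbr 2 and ALDHdim 2 were the highest libraries, and ALDHbr 4 and ALDHdim 4 the lowest. The exact 95% counting intervals were 44.4 to 90.6 CPM in ALDHbr 2 and 2.72 to 12.4 CPM in ALDHbr 4, and in ALDHdim 2 and ALDHdim 4 they were 31.1 to 49.1 and 2.37 to 12.1 CPM; within each group the 2 intervals were apart. The log2 fold change between the groups was -0.14 (SE 0.63, 95% interval -1.53 to 1.25, edgeR adjusted p = 0.999), and it was -0.77 without ALDHbr 2 and 0.29 without ALDHdim 2.

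Ear2 had 76.0, 90.0, 51.7, 70.8 and 46.6 CPM in ALDHbr libraries 1 to 5, against 84.5, 59.5, 62.1, 109 and 114 CPM in ALDHdim libraries 1 to 5. ALDHdim 5 was the highest library and ALDHbr 5 the lowest, and 3 ALDHbr libraries lay within the ALDHdim range. The means were 67.0 ± 17.8 CPM in ALDHbr and 85.8 ± 25.4 CPM in ALDHdim (SD, n = 5 each). With a log2 fold change of -0.37 (SE 0.22, 95% interval -0.83 to 0.09, unadjusted p = 0.105, adjusted p = 0.999), it had the smallest p of the 8 genes in edgeR's test. Without ALDHbr 2 and ALDHdim 2 the estimate was -0.58 (edgeR unadjusted p = 0.0127), and without ALDHbr 3 and ALDHbr 5 it was -0.14 (edgeR unadjusted p = 0.549). With the counts of Ear1 and Ear2 summed before the fit, which removes any splitting of reads between them, the log2 fold change was -0.29 (SE 0.23, 95% interval -0.78 to 0.20, edgeR adjusted p = 0.999).

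Although the sequences are near copies, Ear1 and Ear2 did not follow each other across the libraries. Pearson's r of log2 CPM was 0.10 and Spearman's rho 0.05 over 10 libraries (permutation p = 0.784 and 0.892). ALDHdim 4 had the lowest Ear1 level of all and the second highest Ear2 level, 5.89 CPM beside 109 CPM. The 250 bases before the RefSeq start site (GRCm38.p6), at chr14:43819640-43819889 (minus strand) for Ear1 and chr14:44102404-44102653 (plus strand) for Ear2, are shown with bases that differ or have no partner in capitals.
Ear1 upstream: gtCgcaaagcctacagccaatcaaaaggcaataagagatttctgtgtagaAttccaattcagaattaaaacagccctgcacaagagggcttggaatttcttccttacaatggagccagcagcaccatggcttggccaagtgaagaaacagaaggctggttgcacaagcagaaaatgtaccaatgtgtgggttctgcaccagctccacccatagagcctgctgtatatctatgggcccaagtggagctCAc
Ear2 upstream: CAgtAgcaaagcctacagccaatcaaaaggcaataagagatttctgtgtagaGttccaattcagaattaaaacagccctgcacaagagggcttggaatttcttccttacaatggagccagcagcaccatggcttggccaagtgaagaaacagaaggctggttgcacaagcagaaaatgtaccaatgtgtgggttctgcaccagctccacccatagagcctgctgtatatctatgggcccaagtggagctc

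The upstream sequences were identical at 246 of 252 aligned positions (97.6%). The Ear1 window lies inside the wider span given above for the gene, as the RefSeq start site used is not at the 5' end of that span. Each holds a single match to TTGCNNAA, a form of the C/EBP motif, at the same place in the shared sequence, 92 bases before the Ear1 start and 90 before the Ear2 start. On both strands, 9.56% of the 32851 upstream sequences in the RefSeq table hold this motif. A match is a description of the letters and does not show that a factor binds there.

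**Figure D2:**
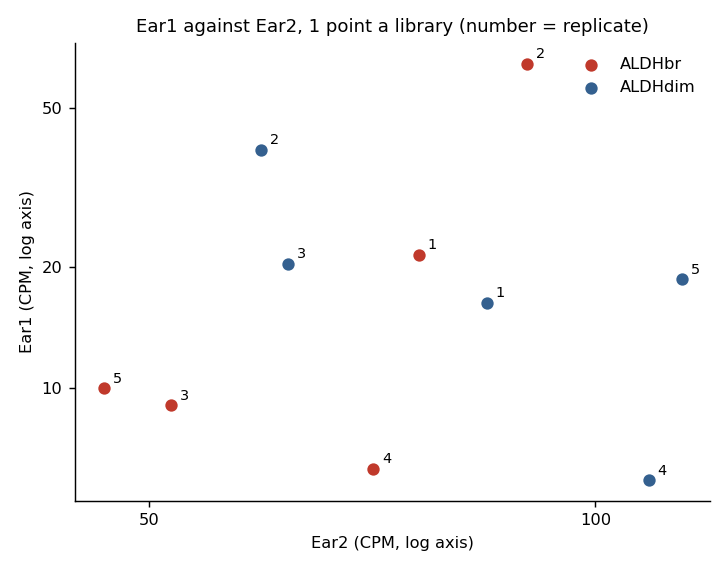
Ear1 against Ear2, both in CPM on log axes, with 1 point a library numbered by replicate and coloured by group. The points form no line (Pearson's r 0.10 on log2 CPM over 10 libraries), and ALDHdim 4 lies at the bottom right.

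Fabp1 (chr6:71199827-71205023, plus strand), a fatty acid binding protein best known from liver and gut, did not pass the filter. It had 8, 14, 0, 0 and 0 counts in ALDHbr libraries 1 to 5, against 10, 23, 9, 0 and 3 counts in ALDHdim libraries 1 to 5. With a limit of 3 counts, a count of 0 allows up to 3.88 CPM in ALDHbr 3, 2.36 CPM in ALDHbr 4, 2.50 CPM in ALDHbr 5 and 2.53 CPM in ALDHdim 4, for counting error only. The exact 95% intervals in these libraries reached 4.77, 2.90, 3.07 and 3.11 CPM. The level was 27.4 CPM in ALDHbr 2 (exact 95% interval 15.0 to 45.9) and 11.6 CPM in ALDHdim 2 (7.36 to 17.4), the highest of each group. The hepatocyte gene Apoa1 had 2 counts over all libraries and Alb had 36.

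Krt79 (chr15:101929332-101940324, minus strand), a type II keratin that is also a transcript of mouse alveolar macrophages, had 87 counts in all and did not pass the filter either. It had 5.70, 17.6, 6.47, 2.36 and 4.998 CPM in ALDHbr libraries 1 to 5, against 7.10, 13.6, 5.10, 5.05 and 3.30 CPM in ALDHdim libraries 1 to 5. ALDHbr 2 and ALDHdim 2 were again the highest of their groups, and the groups overlapped. No test is given for Fabp1 and Krt79 in the main comparison, and with no filter their edgeR adjusted p was 0.939 and 0.878.

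Plet1 (chr9:50494525-50505482, plus strand), a lipid-anchored surface protein of alveolar macrophages and of some epithelia, was the steadiest of the 10. It had 86.1, 54.8, 69.9, 82.6 and 65.8 CPM in ALDHbr libraries 1 to 5, against 85.2, 72.1, 72.3, 87.6 and 88.4 CPM in ALDHdim libraries 1 to 5. ALDHbr 2 was the lowest library, and 3 ALDHbr libraries lay below every ALDHdim library. The means were 71.8 ± 12.8 CPM in ALDHbr and 81.1 ± 8.22 CPM in ALDHdim (SD, n = 5 each), and the log2 fold change was -0.15 (SE 0.14, 95% interval -0.45 to 0.15, edgeR adjusted p = 0.999). Its interval, 0.733-fold to 1.11-fold, was the narrowest of the 8. The antisense gene Plet1os had 1 count in all libraries.

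Atp6v0d2 (chr4:19876841-19922605, minus strand) encodes a subunit of the membrane part of the vacuolar proton pump, which acidifies lysosomes. It had 60.2, 60.6, 136, 104 and 104 CPM in ALDHbr libraries 1 to 5, against 77.4, 50.4, 87.6, 117 and 105 CPM in ALDHdim libraries 1 to 5. ALDHbr 1, ALDHbr 2 and ALDHdim 2 were the lowest libraries and ALDHbr 3 the highest. The means were 92.9 ± 32.4 CPM in ALDHbr and 87.5 ± 25.8 CPM in ALDHdim (SD, n = 5 each), and the log2 fold change was 0.10 (SE 0.25, 95% interval -0.44 to 0.64, edgeR adjusted p = 0.999). Its widely expressed paralog Atp6v0d1 varied less, with 139 ± 8.67 CPM in ALDHbr and 124 ± 10.0 CPM in ALDHdim.

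**Figure D3:**
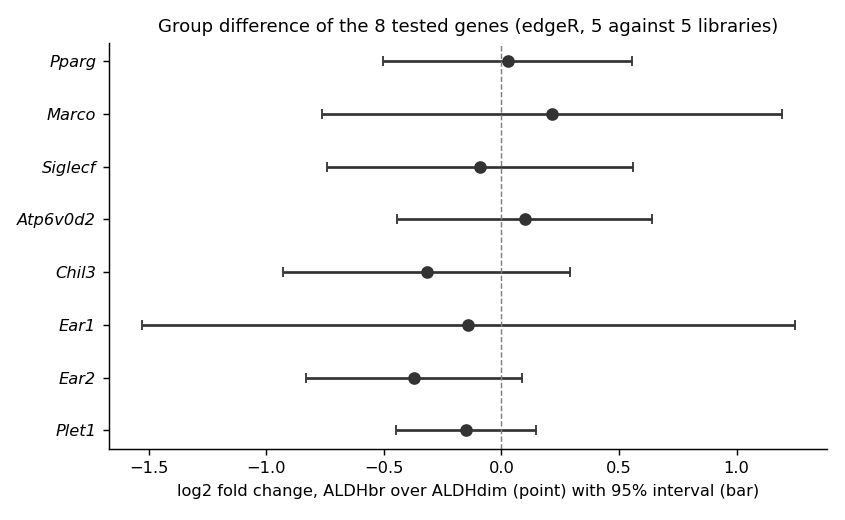
Log2 fold change of ALDHbr over ALDHdim (points) with its 95% interval (bars) for the 8 tested genes, from edgeR with 5 against 5 libraries. All 8 intervals contain 0; that of Ear1 is the widest (-1.53 to 1.25) and that of Plet1 the narrowest (-0.45 to 0.15).

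The spread between libraries differed widely among the 8 tested genes. The SD of log2 CPM over the 10 libraries was 1.01 for Ear1 and 0.82 for Marco, above that of 99.4% and 98.1% of tested genes. It was 0.55 for Chil3, 0.46 for Atp6v0d2, 0.42 for Ear2 and for Siglecf and 0.36 for Pparg, and the 0.22 of Plet1 exceeded only 20.9% of tested genes. The biological coefficient of variation, which removes counting noise, was 67.2% for Ear1, 43.4% for Marco and 31.7% for Chil3, where genes of similar level had 19.8%, 23.0% and 21.9%. For Siglecf (18.4%, trend 23.2%) and Pparg (19.4%, trend 20.6%) it was not above the trend.

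ALDHbr 2 held the highest ALDHbr level of 7 of the 10 genes, namely Marco, Siglecf, Chil3, Ear1, Ear2, Fabp1 and Krt79, and was the highest ALDHbr library for 2646 of 10844 tested genes. ALDHdim 2 held the highest ALDHdim level of 5, Siglecf, Chil3, Ear1, Fabp1 and Krt79, and was highest for 2603 of the 10844. Ear2, Plet1 and Atp6v0d2 had the opposite placing in ALDHdim 2, where they were the lowest of the group. In ALDHbr 4, Siglecf, Chil3, Ear1, Pparg and Krt79 were the lowest of the group. The 10 genes therefore did not move across these lungs as a single block.

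Some of the 8 tested genes varied together or in opposition across libraries. The permutation tests take the libraries as independent and make no use of replicate numbers. Of 28 pairs, 3 had an adjusted permutation p under 0.05 by Pearson's r and 1 by Spearman's rho, with adjustment over the 28 pairs, and 8 had an unadjusted p under 0.05 by either. Siglecf and Chil3 varied together, with r 0.86 (permutation p = 0.00108, adjusted p = 0.0297) and rho 0.92 (permutation p = 0.00066, adjusted p = 0.0185). After the group means were subtracted r was 0.92 (exact within-group permutation, adjusted p = 0.0117). It was 0.64 without ALDHbr 2 and ALDHbr 4, the libraries farthest from the Siglecf median (exact permutation, adjusted p = 0.421), and 0.77 without ALDHbr 2 and ALDHdim 2 (exact permutation, adjusted p = 0.133). With single libraries left out r stayed between 0.77 and 0.92, and the adjusted p was above 0.05 without ALDHbr 3 (0.0521), ALDHbr 4 (0.0638) or ALDHdim 3 (0.0523) and under it without any of the other 7 (exact permutation).

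Siglecf and Ear1 had r 0.82 (permutation p = 0.00266, adjusted p = 0.0297) and rho 0.78 (permutation p = 0.0109, adjusted p = 0.0697). Their r was 0.82 after subtraction of the group means (exact within-group permutation, adjusted p = 0.0651), 0.64 without ALDHbr 2 and ALDHbr 4 and 0.56 without ALDHbr 2 and ALDHdim 2 (exact permutation, adjusted p = 0.421 and 0.509). Without ALDHbr 2 alone it was 0.69 (exact permutation, adjusted p = 0.205), and the adjusted p stayed under 0.05 only without ALDHbr 1, ALDHdim 4 or ALDHdim 5 among the 10 libraries left out singly. Ear1 and Atp6v0d2 were opposed, with r -0.83 (permutation p = 0.00318, adjusted p = 0.0297) and rho -0.79 (permutation p = 0.00836, adjusted p = 0.0697). That r was -0.82 without ALDHbr 2 and ALDHdim 4, the farthest from the Ear1 median, -0.83 after subtraction of the group means and -0.70 without ALDHbr 2 and ALDHdim 2. The adjusted p was 0.0651 after subtraction of the group means (exact within-group permutation) and 0.185 and 0.352 in the 8-library sets (exact permutation). With single libraries left out r stayed between -0.86 and -0.79, and the adjusted p was under 0.05 without ALDHbr 1, ALDHbr 2 or ALDHdim 5 and above it without any of the other 7 (exact permutation, 0.0305 to 0.0664).

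Marco with Ear1 and Chil3 with Ear1 each had r 0.77 (permutation adjusted p = 0.0538), with rho 0.65 and 0.77 (permutation adjusted p = 0.149 and 0.0697). Marco with Atp6v0d2 had r -0.72 and rho -0.77 (permutation adjusted p = 0.0726 and 0.0697). These missed the threshold. Atp6v0d2 had a negative r with all 4 of Marco, Siglecf, Chil3 and Ear1, between -0.83 and -0.65. Pparg had no r outside -0.24 to 0.34 with any of the other 7. Ear2 and Plet1 had r 0.45 and rho 0.65 over 10 libraries (permutation adjusted p = 0.399 and 0.149), and r depended on which libraries were kept. It was 0.92 without ALDHbr 2 and ALDHdim 2 (exact permutation, adjusted p = 0.00417), 0.21 without ALDHbr 5 and ALDHdim 5, the farthest from the Ear2 median (exact permutation, adjusted p = 0.904), and 0.27 without ALDHbr 3 and ALDHbr 5 (exact permutation, adjusted p = 0.794). With single libraries left out this r ranged from 0.33 to 0.93.

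**Figure D4:**
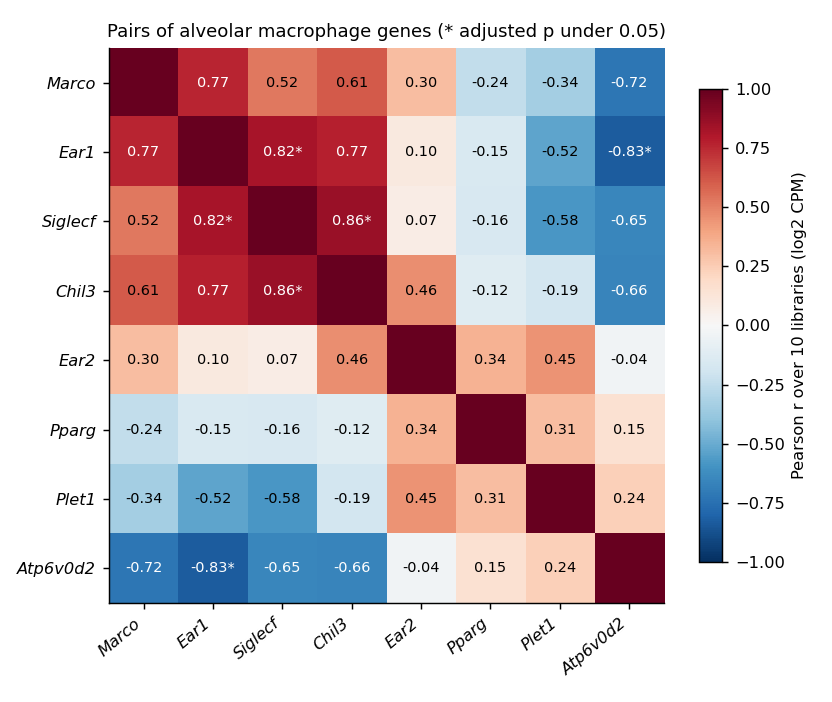
Pearson's r of log2 CPM over 10 libraries for the 28 pairs of the 8 tested genes, with an asterisk where the permutation p adjusted over the pairs was under 0.05. Marco, Siglecf, Chil3 and Ear1 have positive r with one another (0.52 to 0.86) and negative r with Atp6v0d2 (-0.83 to -0.65).

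By rank among all 10843 other tested genes, Siglecf was number 28 in r with Chil3, and Chil3 was number 36 in r with Siglecf. Ear1 was number 92 for Siglecf, whereas its near copy Ear2 was number 4539 for Ear1. Atp6v0d2 was number 10715 for Ear1, close to the opposite end. The bases before the start sites of Siglecf and Chil3, the pair that moved most closely together, are shown from RefSeq (GRCm38.p6) at chr7:43351091-43351340 (plus strand) and chr3:106167565-106167814 (minus strand). Capitals mark GGAAGT, the core of the ETS motif bound by the macrophage factor PU.1 and its relatives, which reads ACTTCC on the opposite strand.
Siglecf upstream: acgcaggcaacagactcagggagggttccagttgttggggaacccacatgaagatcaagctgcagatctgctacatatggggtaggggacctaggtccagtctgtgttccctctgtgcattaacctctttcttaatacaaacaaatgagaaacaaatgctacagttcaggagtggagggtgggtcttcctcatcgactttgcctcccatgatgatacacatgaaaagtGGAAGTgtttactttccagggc
Chil3 upstream: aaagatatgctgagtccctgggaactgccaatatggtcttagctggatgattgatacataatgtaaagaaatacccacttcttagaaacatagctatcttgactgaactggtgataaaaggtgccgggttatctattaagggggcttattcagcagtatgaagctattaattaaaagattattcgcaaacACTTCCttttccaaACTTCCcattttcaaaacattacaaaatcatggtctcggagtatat

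GGAAGT lay 22 bases before the start of Siglecf, and on the opposite strand 60 and 46 bases before that of Chil3. It was found on either strand in 19.7% of the 32851 upstream sequences. No match lay in the windows of Marco, Ear1, Ear2, Fabp1, Pparg, Plet1 or Krt79. The longer form GAGGAAGT, found in 2.44% of the upstream sequences, was in neither the Siglecf nor the Chil3 window. Upstream sequences were found for 9 of the 10 genes. AGGTCA, the repeat unit of the PPAR-gamma element (14.0% of upstream sequences), matched before Fabp1, Plet1 and Pparg itself. No match says only that these letters are not in the window.

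The members were set beside 14 genes of other cells and programmes and the library total, 120 relations in all. None had an adjusted permutation p under 0.05 by Pearson's r or by Spearman's rho, with 32 and 30 at an unadjusted p under 0.05; the lowest adjusted p was 0.0513. After subtraction of the group means 12 had an adjusted p under 0.05 (exact within-group permutation). In that test Siglecf ran opposite to Itgax, listed with other alveolar macrophage genes (r -0.76, adjusted p = 0.0475). It also ran opposite to the GM-CSF receptor genes Csf2ra (r -0.72, adjusted p = 0.0475) and Csf2rb (r -0.66, adjusted p = 0.0486). With Fabp4 and Mrc1, on the list of Itgax, its r was 0.56 and -0.50 (adjusted p = 0.212 and 0.152). Without ALDHbr 2 and ALDHdim 2, 0 relations had an adjusted p under 0.05. Of these, 7 had an unadjusted exact permutation p under 0.05, and the lowest adjusted p was 0.675. The r of Siglecf with Itgax, Csf2ra and Csf2rb was then -0.19, -0.41 and -0.40.

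Of the 4 relations with the lowest adjusted p by Pearson's r, 3 were with Spp1, which encodes osteopontin, a product of recruited macrophages in fibrotic lung and of other cells. Spp1 had 732, 143, 1752, 2326 and 1551 CPM in ALDHbr libraries 1 to 5, against 942, 163, 868, 3251 and 3110 CPM in ALDHdim libraries 1 to 5. ALDHbr 2 and ALDHdim 2 lay far below the rest and the groups overlapped. Ear1 ran opposite to Spp1, with r -0.89 (permutation p = 0.0009, adjusted p = 0.0513) and rho -0.88 (permutation p = 0.00158, adjusted p = 0.0550). Over the 8 libraries other than ALDHbr 2 and ALDHdim 2 that r was -0.66 (exact permutation, adjusted p = 0.675).

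Atp6v0d2 ran with Spp1, with r 0.87 (permutation p = 0.00065, adjusted p = 0.0513) and rho 0.85 (permutation p = 0.003, adjusted p = 0.0550), and r 0.77 over the same 8 libraries. Siglecf ran opposite to it, with r -0.81 (permutation p = 0.00171, adjusted p = 0.0513) and rho -0.85 (permutation p = 0.00288, adjusted p = 0.0550), and r -0.57 over the 8. Marco had r -0.69 and Chil3 -0.66 with Spp1 (permutation adjusted p = 0.139 and 0.163), and rho was -0.68 and -0.75 (permutation adjusted p = 0.189 and 0.151). Over the 8 libraries their r was -0.59 and -0.36. After subtraction of the group means the r with Spp1 was -0.90 for Ear1, 0.88 for Atp6v0d2, -0.82 for Siglecf and -0.77 for Chil3, each with an adjusted p of 0.0444 in an exact within-group permutation test.

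**Figure D5:**
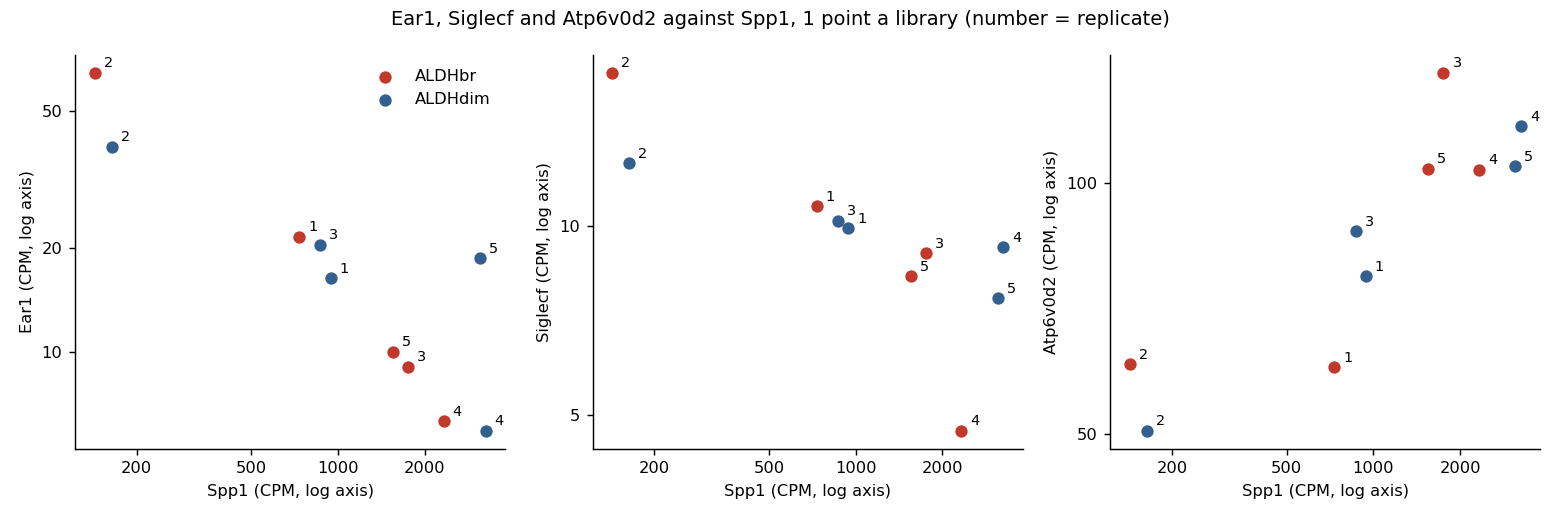
Ear1, Siglecf and Atp6v0d2 against Spp1, all in CPM on log axes, 1 point a library numbered by replicate and coloured by group. Ear1 and Siglecf are highest and Atp6v0d2 is low in ALDHbr 2 and ALDHdim 2, where Spp1 is at 143 and 163 CPM.

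Other measures moved with the same libraries. Siglecf followed Scgb1a1 (r 0.83, rho 0.89, permutation adjusted p = 0.0513 and 0.0550) and the surfactant gene Sftpc of alveolar type 2 cells (r 0.78, rho 0.71, permutation adjusted p = 0.0985 and 0.154), and ran opposite to the pan-leukocyte gene Ptprc (r -0.77, rho -0.82, permutation adjusted p = 0.133 and 0.0761). Atp6v0d2 followed the macrophage receptor gene Adgre1 (r 0.83, rho 0.81, permutation adjusted p = 0.0730 and 0.0883), to which Ear1 ran opposite (r -0.80, rho -0.72, permutation adjusted p = 0.0891 and 0.154). Plet1 followed Csf1r, the receptor of the macrophage growth factor (r 0.81, rho 0.89, permutation adjusted p = 0.0730 and 0.0550), and Col1a1, a chain of type I collagen (r 0.74, rho 0.87, permutation adjusted p = 0.111 and 0.0550). Over the 8 libraries other than ALDHbr 2 and ALDHdim 2 these r were 0.59, 0.51 and -0.54 for Siglecf with Scgb1a1, Sftpc and Ptprc. With Adgre1 they were 0.64 for Atp6v0d2 and -0.44 for Ear1, and for Plet1 they were 0.76 with Csf1r and 0.65 with Col1a1. The part of tissue composition in these relations was not tested. With the library total, r lay between -0.36 for Siglecf and 0.69 for Plet1 (permutation adjusted p = 0.139 for Plet1).

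Since Atp6v0d2 ran opposite to 4 of the 8, no gene could have a high r with every one. The highest mean r with the 8 was 0.38, for Usf3, Ndufb5 and Dip2a, and the next, Acsf3, Tent5b, Sgta, Sqor and Acd, had 0.36 to 0.37. Usf3 had r 0.90 with Chil3 and -0.73 with Atp6v0d2. Leaving out predicted, clone and Rik names, the genes nearest to Atp6v0d2 were Mlec (r 0.99) and S100a14 (r 0.97) over 10 libraries. Clec7a, the beta-glucan receptor of macrophages, the chemokine gene Ccl6 and Ccng1 followed with r 0.97, and Ntrk2 with r 0.96. Clec7a was singled out after its values were seen. Clec7a had 98.8, 78.2, 404, 359 and 339.9 CPM in ALDHbr libraries 1 to 5, against 179.6, 73.7, 249, 348 and 360.4 CPM in ALDHdim libraries 1 to 5. Its low libraries were those of Atp6v0d2. Cidec, a lipid droplet protein listed with alveolar macrophages and adipocytes, had the placing of Ear1 at its upper end. It had 22.2, 48.9, 16.8, 12.6 and 10.0 CPM in ALDHbr libraries 1 to 5, against 16.3, 26.7, 21.3, 11.0 and 13.2 CPM in ALDHdim libraries 1 to 5. Other genes of the alveolar macrophage list differed in ALDHbr 2 and ALDHdim 2. Car4 (205 and 201 CPM) and Fabp4 (176 and 166 CPM) were the highest of each group there. Itgax (17.6 and 26.2 CPM), Ctsk (29.3 and 21.7 CPM) and Ccl6 (311 and 279.5 CPM) were the lowest of each group.

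In the pathway that leads to Pparg, 0 of 19 tested genes of the GM-CSF, TGF-beta and PPAR-gamma list were called. Estimates were higher in ALDHbr recipients for 4 and lower for 15, beside 5628 higher and 5216 lower over all tested genes. The median log2 fold change was -0.16, beside 0.01 over all tested genes. The ligand gene Csf2 was too low to test, with 20 counts in all libraries. Csf2rb, the signalling chain of its receptor, averaged 36.4 ± 12.9 CPM over ALDHbr libraries and 52.9 ± 26.1 CPM over ALDHdim libraries (SD, n = 5 each; log2 fold change -0.49, SE 0.34), and Csf2ra, the ligand-binding chain, had a log2 fold change of -0.23 (SE 0.33). Rxra, the partner of PPAR-gamma on DNA, had -0.32 (SE 0.19), and the corepressor gene Ncor1 had -0.28 (SE 0.14). None of these passed edgeR's test (adjusted p = 0.999).

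Of 23 tested genes on a list of other alveolar macrophage genes, 0 were called, 9 estimates were higher and 14 lower in ALDHbr, and the median log2 fold change was -0.09. Itgax, the integrin CD11c, averaged 38.4 ± 14.5 CPM over ALDHbr libraries and 58.9 ± 27.4 CPM over ALDHdim libraries (SD, n = 5 each), and the protease gene Ctsk 66.0 ± 24.5 CPM in ALDHbr and 49.5 ± 15.8 CPM in ALDHdim. Genes of lipid uptake, storage and efflux had 0 calls among 19 (6 higher, 13 lower, median -0.07), with Lpl, lipoprotein lipase, at -0.39 (SE 0.25). Scavenger receptors related to Marco by function had 0 among 14 (6 higher, 8 lower, median -0.04), with Mrc1 at -0.27 (SE 0.18), Olr1 at -0.44 (SE 0.33) and Cd36 at -0.25 (SE 0.19) on the log2 scale.

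The families of the 10 genes gave 0 calls as well. Subunits and partners of the proton pump had 8 higher and 10 lower estimates and a median log2 fold change of -0.03. Of these 18, 3 had an unadjusted edgeR p under 0.05, beside 3.71% of all tested genes. They were Atp6v0b at 0.29 (SE 0.12), Atp6v1d at -0.29 (SE 0.13) and Atp6v0e2 at -0.46 (SE 0.21). Among ribonuclease relatives of Ear1 and Ear2, 3 were tested (Rnase6, Ang and Rnase4, median 0.11). Among chitinases and relatives of Chil3, 4 were tested (median 0.10), with Chia1 at -0.32 (SE 0.20) and Chil1 at 0.17 (SE 0.22). The fatty acid binding proteins had 3 tested genes (median 0.01) and the Siglecs 2, Cd22 at 0.31 (SE 0.27) and Cd33 at 0.18 (SE 0.22).

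Lists of neighbouring cell types had 0 calls each. The median log2 fold change was -0.14 for 14 genes of C1q and interstitial macrophages, -0.09 for 12 of monocytes and recruited macrophages, 0.01 for 15 of profibrotic macrophages, -0.71 for 10 of neutrophils and -0.03 for 10 pan-leukocyte genes. It was -0.03 for 10 genes of alveolar type 2 cells, -0.07 for 9 of club and ciliated cells, 0.01 for 5 of adipocytes, -0.36 for 10 of fibrotic matrix and 0.20 for 9 of the cell cycle. The neutrophil genes of smallest edgeR p, S100a8, S100a9 and Retnlg, were highest in ALDHdim 2, at 300, 484 and 77.2 CPM. Elsewhere in ALDHdim they had at most 104, 113 and 41.2 CPM. The part of that library in the neutrophil median was not tested. Eosinophil and squamous lists had 1 tested gene each and the hepatocyte list 0. The summed level of the eosinophil list was 9.78 to 19.6 CPM in ALDHbr and 14.9 to 17.6 CPM in ALDHdim, and that of the profibrotic list was 4418 to 8601 CPM in ALDHbr and 3902 to 9810 CPM in ALDHdim.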

How the data were processed

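RNA of 10 lung samples, 5 ALDHbr and 5 ALDHdim, was measured by BRB-seq, a barcoded 3' method, with an RNA read of 81 bases per the labels' protocols. The authors deposited a table of unnormalized counts, whole numbers for each gene. Tools named in the submitters' processing notes, without roles, are HISAT2 2.2.1, featureCounts 2.0.1, Trim Galore 0.6.7, UMI-tools and DESeq2, and the builds named are GRCm38 and GRCh38. Collapsing by molecular identifier, use of strand and the annotation remain unknown, as none was given in the sources used here; intervals on counts therefore cover counting error only.

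All 33347 identifiers were found in GENCODE mouse release 21 (GRCm38). Genes were kept by filterByExpr (minimum count 10), which left 10844 genes with 97.3% of counts, and were tested with edgeR 4.0.16 in R 4.3.3 (TMM, robust glmQLFit, glmQLFTest, Benjamini-Hochberg over all tested genes, threshold 0.05); the scripts were tested on simulated data. Fold changes are ALDHbr over ALDHdim. The common biological coefficient of variation was 19.7%. Correlations used log2 CPM with a prior count of 2 and two-sided permutation tests of 100000 resamples, or all permutations for 8 libraries and within groups. Limits of a count of 0 are 3 counts. Sequences came from RefSeq (GRCm38.p6) and GENCODE, aligned with Biopython 1.88, and plots from matplotlib 3.10.9.

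The members and 22 gene lists were chosen with earlier results of these data known. All 10 members are named, with up to 3 genes of smallest p per list, the 8 genes of highest mean r and a fixed set of comparison genes. Alternatives were other scalings and filters, DESeq2 1.42.0, limma-voom (limma 3.58.1), a replicate block, Ear1 and Ear2 summed, other thresholds and prior counts, and left-out libraries.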

Additional observations from a re-analysis of the deposited data

Results flagged for a closer look

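Among 50 sets of 5 libraries (the 10 genes, their summed share of counts and 14 comparison genes, in each group), 5 held a library far from the other 4. In independent, normally distributed sets chance flags about 1 in 20, or 2.5 sets. These sets share libraries and genes that varied together, and their distribution was not tested. The 5 flags therefore cannot be weighed against 2.5. Ear1 was at 64.55 CPM in ALDHbr 2, with 6.29 to 21.5 CPM elsewhere in ALDHbr. Fabp1 was at 27.38 CPM in ALDHbr 2, against 0 to 5.07 CPM in the others. Krt79 was at 17.6 CPM in ALDHbr 2, against 2.36 to 6.47 CPM in the others. Scgb1a1, the club cell secretoglobin, was at 44490 CPM in the same library, with 15250 to 23270 CPM elsewhere in ALDHbr. ALDHbr 2 was also the library of fewest counts, 588063, and the part of depth in these values was not tested. S100a8, a neutrophil gene, was at 300.2 CPM in ALDHdim 2, with 41.7 to 104 CPM elsewhere in ALDHdim.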

How the results depend on the processing

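No member passed the adjusted threshold in any of the settings run, with edgeR, DESeq2 or limma-voom (lowest adjusted p 0.262, for Ear2 with no filter on low counts). Chil3 (-0.66 to -0.059), Ear2 (-0.58 to -0.14) and Plet1 (-0.23 to -0.079) had lower estimates in ALDHbr in every setting. With no filter, 185 genes of the whole table passed, 1 of them on the lists, and 8 of 10 members had lower estimates, against 5 of 8 in the main comparison; without ALDHbr 2 and ALDHdim 2 it was 7 of 8, and with single libraries left out 3 to 6. With Ear1 and Ear2 summed it was 3 of the 6 other members, and the summed feature was lower too (-0.29).

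The sign of the other estimates depended on single libraries. Pparg (0.03) became -0.027 with no filter, -0.033 without ALDHbr 3 and ALDHbr 5 and -0.0025 without ALDHbr 2 and ALDHdim 2. It was -0.018, -0.033, -0.023 and -0.12 without ALDHbr 1, ALDHbr 5, ALDHdim 2 and ALDHdim 3. Ear1 (-0.14) became 0.080 with DESeq2, 0.26 without ALDHbr 3 and ALDHbr 5, and 0.0029, 0.13, 0.047 and 0.29 without ALDHbr 3, ALDHbr 4, ALDHbr 5 and ALDHdim 2; it was -0.77 without ALDHbr 2. Marco (0.22) became -0.16 with limma-voom, -0.23 without ALDHbr 2 and ALDHdim 2 and -0.24 without ALDHbr 2, and was 0.43 without ALDHbr 5 and 0.70 without ALDHbr 3 and ALDHbr 5. Atp6v0d2 (0.10) became -0.19 without ALDHbr 3 and ALDHbr 5, -0.057 without ALDHbr 3 and -0.056 without ALDHdim 2, and reached 0.24 without ALDHbr 1. Siglecf (-0.09) became 0.11 without ALDHbr 4 and 0.029 without ALDHdim 2, and was -0.28 without ALDHbr 2. The cause was not tested.

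Of pairs of members, 3 passed; 1 did after subtraction of group means, 0 without the 2 farthest libraries, 1 without ALDHbr 2 and ALDHdim 2, 1 without ALDHbr 3 and ALDHbr 5, and 0 to 3 with single libraries left out. Ear1 with Plet1 turned from r -0.52 to 0.10 without the farthest libraries and 0.11 without ALDHbr 2 and ALDHdim 2. Of relations with other measures, 0 passed, against 4 with DESeq2 size factors, 12 after subtraction of group means, 1 without the 2 farthest libraries, 5 without ALDHbr 3 and ALDHbr 5, and 0 to 8 with single libraries left out. Leaving out chosen pairs or single libraries in the correlations was added after seeing the data.

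With the replicate number as a block, 0 genes passed and the Chil3 estimate was -0.45 (edgeR unadjusted p = 0.0151). Same-numbered libraries had r of 0.0616 to 0.366 in their deviations from the group means, and 7 of 10 libraries were closest to their own number, a hint from the data and not the design, so the numbers were not taken as pairs. Depth limits Fabp1, Krt79, Siglecf and Marco most, with 0 to 27 counts a library.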
